A study of Homo sapiens with 7 samples.

Results

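The SR proteins of the SRSF series and the heterogeneous nuclear ribonucleoproteins (hnRNPs) are RNA-binding proteins that steer splicing, and the transcripts of their genes were followed here through knockdown of the long non-coding RNA GRASLND. Members were taken by gene symbol, as SRSF followed by a number or HNRNP followed by a letter, and symbols of processed pseudogenes were left out. The rule gave 35 of the 21305 genes in the table, of which 11 were SRSF genes and 24 were HNRNP genes. 20 pseudogene symbols were set aside, and 3 of them reached a mean of 10 normalized counts, with a highest mean of 29.2.

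RNA sequencing was done on 501Mel, an established human melanoma cell line of the differentiated, melanocytic type. Each line carried a hairpin RNA expressed from a doxycycline-inducible lentiviral vector, and per the labels doxycycline had been given to all of the cells, controls included. The control hairpin (shlacZ, n = 3 libraries) is directed against the bacterial gene lacZ, and the hairpins sh4 (n = 2) and sh8 (n = 2) are directed against GRASLND. Per the methods of the study the lines were puromycin-selected pools of transduced cells rather than single clones. The labels number the replicates without saying that they were separate cultures, so that p-values measure the spread between these libraries, which may be technical. A bulk library cannot tell fewer cells of a kind from less RNA per cell.

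Pre-mRNA is bound by both families as it is made. SR proteins carry RNA-recognition motifs and a tail rich in arginine and serine, which kinases phosphorylate, and they are best known for binding exonic enhancers and recruiting the splicing machinery. The hnRNPs package nascent transcripts and many of them bind silencers, in part against SR proteins, while others act in export, translation, mRNA decay or chromatin structure. Many genes of both families regulate their own transcripts through exons that send the mRNA to nonsense-mediated decay, which a count per gene does not show.

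The members were all measured well apart from a few low ones. Depth ranged from 13337317 to 22855232 reads per library, all 35 members passed the minimum mean of 10 normalized counts, and 32 had a mean over 500. GRASLND had 309, 330 and 290 normalized counts in shlacZ, 175 and 131 in sh4, and 227 and 163 in sh8. Every knockdown library thus lay below every control, and for both hairpins against shlacZ the log2 fold change was -0.85 (SE 0.19, limma adjusted p = 0.0402; exact two-sided permutation p = 0.0571, where 0.0286 is the smallest p these libraries can give). Without variance trend, with a replicate block and without any single library other than replicate 1 of sh8, that adjusted p was above 0.05. Of the melanocytic markers, 7 of 7 were present, and 1 of 3 fibroblast markers was in the table (COL1A1, 5.24 to 16.4 counts). The summed melanocytic markers ranged from 135575 to 146343 in shlacZ, from 51868 to 59737 in sh4 and from 101544 to 104484 in sh8, and their part in the results below was not tested. TYR did not follow the sum, with means of 8803 in shlacZ, 9736 in sh4 and 10257 in sh8.

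In control cells the highest levels belonged to the hnRNPs that coat nascent RNA. Per kilobase of all annotated exons, HNRNPA1 had 3872 normalized counts ± 273 (SD, n = 3), HNRNPA2B1 had 2251 ± 107, HNRNPK had 2143 ± 247 and HNRNPF had 2082 ± 305. HNRNPA1 and HNRNPA2B1 bind UAG-containing elements and HNRNPK binds C-rich RNA. HNRNPA1 stood above the others by more than the spread, whereas HNRNPA2B1, HNRNPK and HNRNPF lay within it. The SRSF gene with the highest level by this length was SRSF2, the speckle protein SC35, at 1121 ± 225. SRSF1 lay within that spread at 1011 ± 107. The order depends on the length used. Over the canonical transcript alone HNRNPA2B1 came first with 7827 counts per kilobase and HNRNPA1 second with 6926. Among the SRSF genes SRSF5 then came first with 3147, and SRSF2 had 1768.

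**Figure D1:**
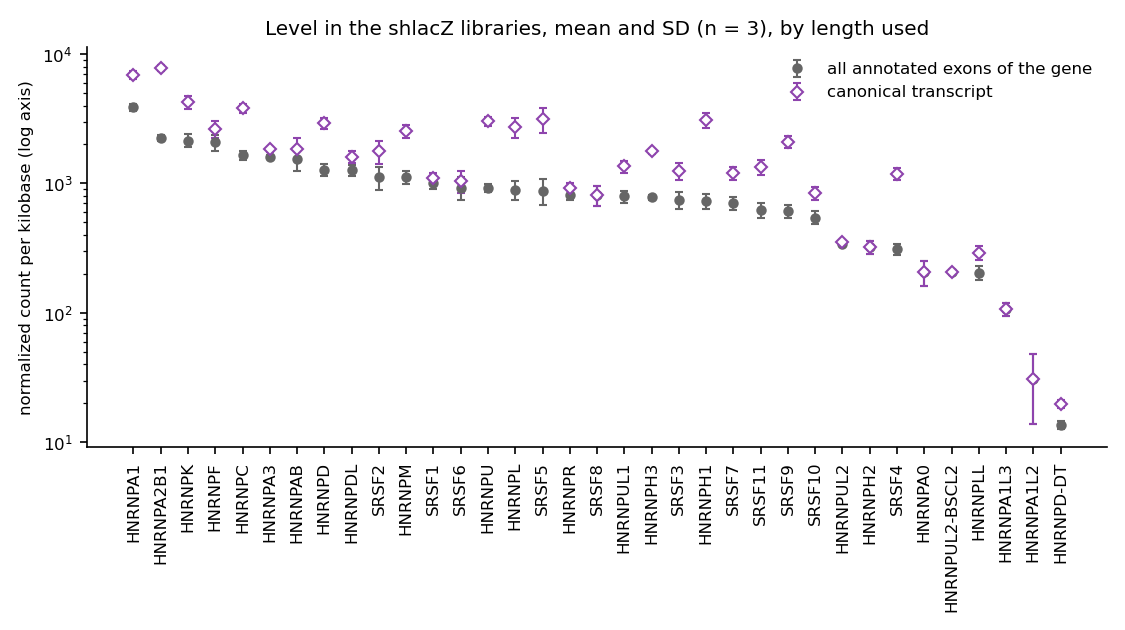
Normalized counts per kilobase (log axis) in the shlacZ libraries for each member, as mean and SD over 3 libraries, divided by the length of all annotated exons (filled circles) or of the canonical transcript (open diamonds). HNRNPA1 leads by the first length with 3872 and HNRNPA2B1 by the second with 7827, and the spread between libraries is small against the range over genes.

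4 members are low or not clearly separable from a neighbour. HNRNPA1L2 and HNRNPA1L3 are near-identical copies of HNRNPA1, so that reads may be shared between them. HNRNPA1L2 was listed at 67.1, 33.5 and 23.5 normalized counts in shlacZ, 0 and 38.1 in sh4, and 0 and 44.6 in sh8, and no fold change is read from it. HNRNPD-DT, a non-coding transcript that runs divergently from the start of HNRNPD, had 5.27 to 16.4 counts in every library. HNRNPUL2-BSCL2 is a readthrough transcript that shares exons with HNRNPUL2 and with BSCL2, which encodes the lipid droplet protein seipin.

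The first question was how much of each family remained when GRASLND was knocked down. The summed normalized counts of the 24 HNRNP genes were 167620, 194076 and 172767 in shlacZ, 128450 and 144534 in sh4, and 171591 and 147045 in sh8. Both sh4 libraries thus lay below all controls, while the sh8 libraries overlapped them. The sum stood at 76.6% of the control mean in sh4 and at 89.4% in sh8. HNRNPA1 and HNRNPA2B1 alone made up 30.5% of these counts in control cells, without regard to gene length. The summed SRSF genes were 45272, 51594 and 44194 in shlacZ, 40966 and 42195 in sh4, and 48430 and 40697 in sh8, or 88.4% and 94.8% of the control mean. Here too sh4 lay below the controls and sh8 overlapped them. As a share of all normalized counts, HNRNP transcripts made up 0.995% ± 0.0457 (SD, n = 3) in shlacZ, 0.817% ± 0.0432 (n = 2) in sh4 and 0.903% ± 0.103 (n = 2) in sh8. SRSF transcripts made up 0.269%, 0.277% and 0.243% in the shlacZ libraries, 0.251% and 0.247% in sh4, and 0.275% and 0.230% in sh8. On that scale the sh4 libraries lay within the range of the controls, so that the lower SRSF sum under sh4 depends on the scaling.

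**Figure D2:**
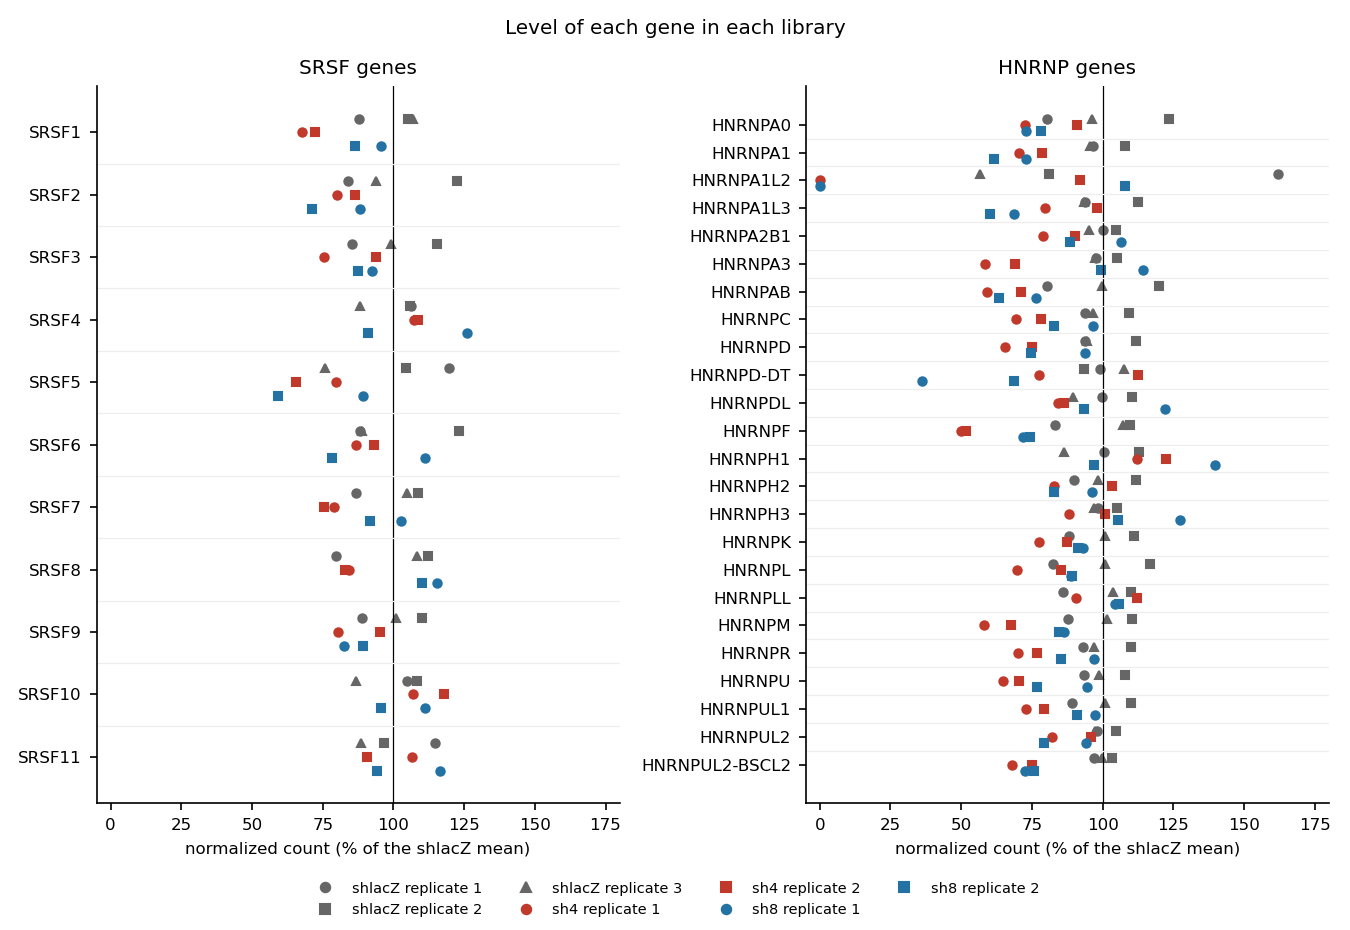
Normalized count of each member in each library as a percentage of the shlacZ mean (vertical line), for SRSF genes on the left and HNRNP genes on the right, with colour for the group and marker shape for the replicate. HNRNPF under sh4 sits farthest left among the well-measured members, and replicate 2 of shlacZ is the highest control for 29 of 35 members.

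The libraries of a group differed in a shared way. Replicate 2 of shlacZ was the highest control for 29 of the 35 members, replicate 1 of sh4 was the lower sh4 library for 31 of them, and replicate 1 of sh8 was the higher sh8 library for 27. The median HNRNP gene stood at 93.8%, 110.0% and 97.3% of its control mean in the shlacZ libraries, at 71.4% and 85.8% in sh4 and at 94.1% and 83.8% in sh8. The median SRSF gene stood at 88.1%, 108.5% and 93.8% in shlacZ, at 80.3% and 90.7% in sh4, and at 102.6% and 89.2% in sh8. The members therefore do not vary independently of each other, and a count of them is not a count of separate observations.

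With both hairpins pooled (n = 4) against shlacZ (n = 3), as the study compares them, a single member passed an adjusted p of 0.05. That is 1 of 35, or 2.86%, in a comparison where 4.61% of the 15420 genes tested were called and 2.06% were called lower. The member called was lower, and 1 call is too few to show an excess. The member was HNRNPUL2-BSCL2, on chromosome 11 from 62690275 to 62727384 (hg38). It had 803, 857 and 826 normalized counts in shlacZ, 562 and 622 in sh4, and 600 and 627 in sh8. All 4 knockdown libraries lay below all 3 controls, with a log2 fold change of -0.46 (SE 0.11, limma adjusted p = 0.0498). The log2 difference between hairpins was -0.05 (95% interval -0.36 to 0.25). The call was lost in 14 of 17 alternatives, among them each single library left out, with a range of -0.48 to -0.40. HNRNPUL2, whose exons it shares, had a log2 fold change of -0.19 (adjusted p = 0.343), and BSCL2 had 0.35 (adjusted p = 0.440), and neither was called.

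Below the threshold, 29 of 35 log2 fold changes of both hairpins were negative, against 50.6% of all genes, with a median of -0.26 against -0.0063. 6 members had all knockdown libraries below all controls, which 11% of all genes also had. Of 6418 genes with a mean over 500, 3827 were below 0 and 988 had all knockdown libraries below all controls, with a median of -0.08. HNRNPF had a log2 fold change of -0.70 (adjusted p = 0.0518), HNRNPAB had -0.55 (adjusted p = 0.0699) and HNRNPA1 had -0.50 (adjusted p = 0.0597), and these too missed the threshold. When the mean of both hairpins was taken from the fit with 3 groups, in which the difference between hairpins does not count as spread, 6 members were called (HNRNPF, HNRNPA1, HNRNPUL2-BSCL2, HNRNPM, HNRNPAB and HNRNPU), among 2534 genes in all. That is 16.4% of the genes tested, called in either direction. All 6 members were lower, and 1352 of the 15420 genes were called lower. With limma-voom on the recovered reads 0 of 35 were called. At an unadjusted p under 0.05, limma on the log values had 8 of 35 members (22.9%) and 24.1% of all genes. That is no excess among the members when both directions are counted. All 8 of these members were lower, and the share of all genes lower at that p was not counted.

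Under sh4, transcripts of many hnRNPs were lower than in control cells. 12 of 35 members were called (34.3%), all of them lower, where 22.5% of all genes were called and 11.9% were called lower. Of genes with a mean over 500, as 32 of the members have, 18.9% were called lower. The members' median log2 fold change was -0.28 against -0.0076 for all genes, and 31 of 35 were below 0, against 50.6% of all genes. In 17 members both sh4 libraries lay below all controls, where 25.6% of all genes had this. Genes with a mean over 500 leaned lower too. Of 6418 such genes 3858 were below 0 and 2215 had both sh4 libraries below all controls, with a median of -0.10. 11 of the 24 HNRNP genes were called, against 1 of the 11 SRSF genes, and whether the families differ was not tested. None of the 12 passed a log2 fold change of 1 in size, which 8.16% of all genes did together with the adjusted p. The count rested on single libraries. Without replicate 2 of shlacZ it was 3 of 35, where 14.6% of all genes were called. Without replicate 3 of shlacZ it was 4 of 35, against 14.8% of all genes. In these fits the share of members was below that of genes called in either direction. The members called were all lower, where 1150 of 15489 genes were called lower without replicate 2 and 1112 of 15466 without replicate 3. Without replicate 1 of shlacZ the count was 16 of 35, all lower, against 31.6% of all genes called and 2649 of 15389 called lower. Without replicate 1 or 2 of sh4, which leaves 1 sh4 library, the members' median log2 fold change was -0.19 or -0.34.

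HNRNPF, which binds runs of G and is related to HNRNPH1, HNRNPH2 and HNRNPH3, had the largest change among the called members. The gene lies on chromosome 10 from 43385617 to 43409186. It had 5667, 7472 and 7305 normalized counts in shlacZ, 3400 and 3520 in sh4, and 4892 and 5060 in sh8. The sh4 libraries lay close together and well below the lowest control, and the sh8 libraries lay between them and the controls. Under sh4 the level was 51.2% of control, a log2 fold change of -0.97 (SE 0.14, adjusted p = 0.00118), and this call was kept in 17 of 17 alternatives. The related genes were not called. HNRNPH1 had a log2 fold change of 0.24 (95% interval -0.14 to 0.62), HNRNPH2 had -0.11 (-0.45 to 0.24) and HNRNPH3 had -0.09 (-0.36 to 0.19).

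**Figure D3:**
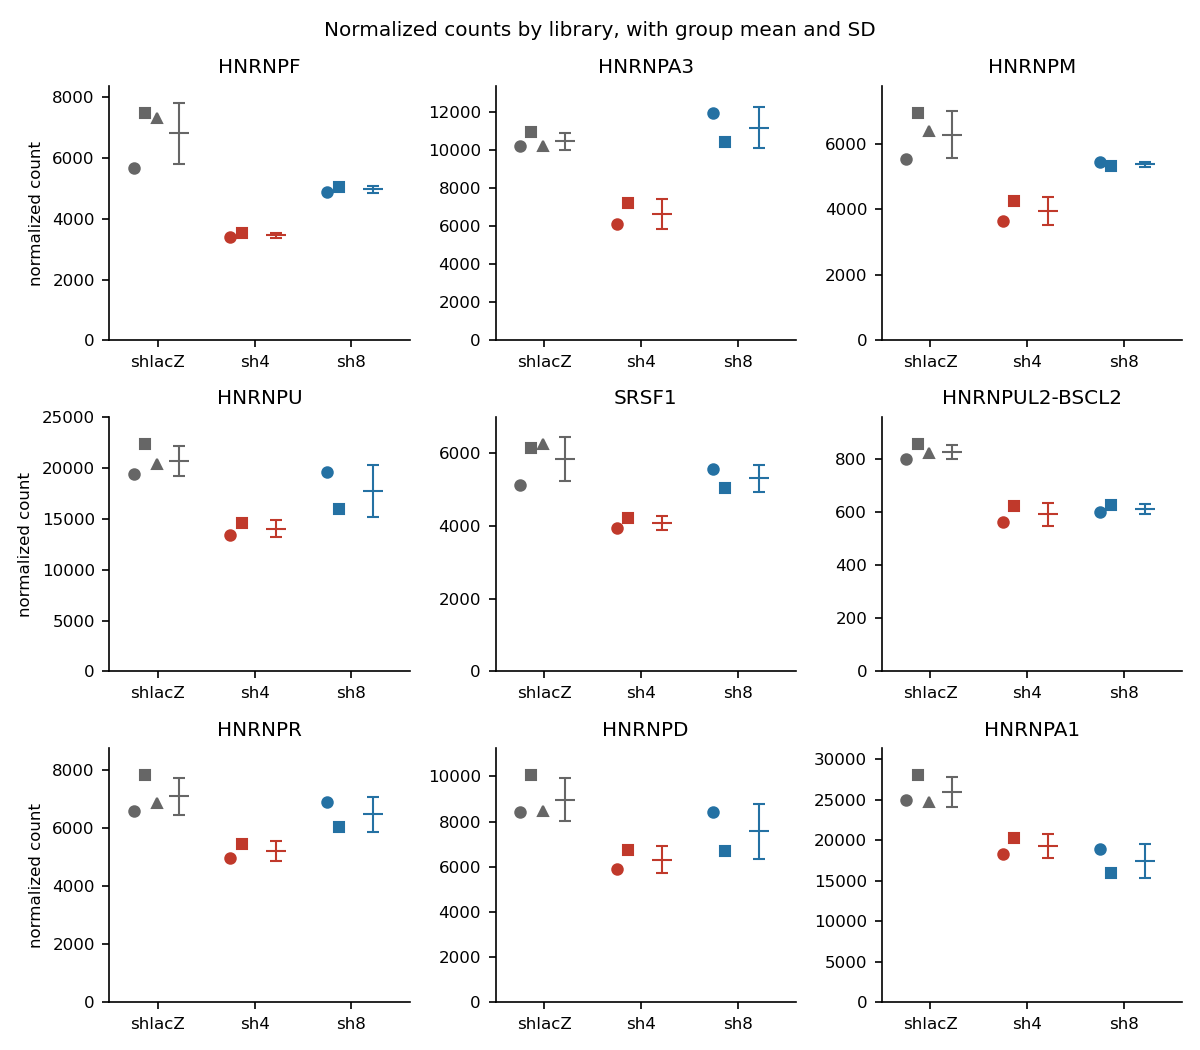
Normalized counts of 9 members in each library (circles replicate 1, squares replicate 2, triangles replicate 3), with the group mean and SD beside them and each axis starting at 0. HNRNPF under sh4 is near 3460 against 6815 in shlacZ, HNRNPA3 is low under sh4 and at the control level under sh8, and HNRNPUL2-BSCL2 is low under both.

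The A/B hnRNPs, which pair 2 RNA-recognition motifs with a glycine-rich tail, held several of the calls. HNRNPA3 (chromosome 2, 177212694 to 177223959) had 10217, 10985 and 10206 counts in shlacZ, 6108 and 7218 in sh4, and 11950 and 10415 in sh8. Its log2 fold change under sh4 was -0.66 (SE 0.12, adjusted p = 0.00482), and both sh4 libraries lay far below every other library. HNRNPD, also known as AUF1 and a regulator of mRNAs with AU-rich elements, lies on chromosome 4 from 82352498 to 82374503. It had 8410, 10053 and 8476 counts in shlacZ, 5885 and 6751 in sh4, and 8427 and 6710 in sh8. The sh4 libraries were below the controls (log2 fold change -0.51, SE 0.14, adjusted p = 0.0289), while 1 sh8 library was at the control level and the other at that of sh4. HNRNPAB, with 3288 counts ± 656 (SD, n = 3) in shlacZ, was called at -0.61 (adjusted p = 0.0331). HNRNPA2B1, a close relative of HNRNPA1, had -0.24 (95% interval -0.54 to 0.05), HNRNPA0 had -0.28 and HNRNPDL had -0.22, and none of these passed.

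HNRNPA1, a shuttling protein that binds splicing silencers and is often set against SRSF1, was the one member called under sh8. The gene lies on chromosome 12 from 54280193 to 54287088. It had 25027, 28033 and 24736 counts in shlacZ, 18268 and 20345 in sh4, and 18949 and 15954 in sh8. All 4 knockdown libraries lay below all controls. The log2 fold change was -0.43 (SE 0.13, adjusted p = 0.0420) under sh4 and -0.57 (SE 0.13, adjusted p = 0.0480) under sh8, and the difference between hairpins was 0.15 (95% interval -0.17 to 0.47). Each of these 2 calls was lost in 10 of 17 alternatives, which include leaving out any single library other than replicate 1 of shlacZ. With quantile normalization the value under sh4 was -0.11 (adjusted p = 0.440).

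HNRNPM, HNRNPR and HNRNPC, with different RNA targets, were also called under sh4. HNRNPM, which favours GU-rich RNA, lies on chromosome 19 from 8444767 to 8489114 and had 5520, 6928 and 6381 counts in shlacZ, 3639 and 4240 in sh4, and 5431 and 5307 in sh8. Its level under sh4 was 62.9% of control (log2 fold change -0.67, SE 0.13, adjusted p = 0.00560), and sh8 lay just below the lowest control. HNRNPR, a relative of SYNCRIP, lies on chromosome 1 from 23303771 to 23344336 and had 6607, 7832 and 6889 counts in shlacZ, 4986 and 5467 in sh4, and 6903 and 6056 in sh8. Again sh4 lay below the controls (log2 fold change -0.44, SE 0.12, adjusted p = 0.0285) and sh8 overlapped them. HNRNPR had -0.27 (adjusted p = 0.0735) with quantile normalization. HNRNPC, which binds U tracts and packages nascent transcripts, had a log2 fold change of -0.43 (adjusted p = 0.0348), which became -0.21 (adjusted p = 0.182) with quantile normalization, and the call was lost in 7 of 17 alternatives. HNRNPK (-0.28), HNRNPL (-0.36), which binds CA repeats, and HNRNPLL (0.02) were not called.

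The U-type hnRNPs bind both RNA and chromatin. HNRNPU, the scaffold attachment factor SAF-A, lies on chromosome 1 from 244840638 to 244864560. It had 19381, 22334 and 20422 counts in shlacZ, 13444 and 14605 in sh4, and 19573 and 15927 in sh8. Both sh4 libraries were below all controls (log2 fold change -0.56, SE 0.13, adjusted p = 0.0141), and 1 of the sh8 libraries was within the control range. With quantile normalization the value under sh4 was -0.28 (adjusted p = 0.104), and the call was lost in 5 of 17 alternatives. HNRNPUL1 was called at -0.39 (adjusted p = 0.0453), a call that was lost in 12 of 17 alternatives, and had -0.22 with quantile normalization. The readthrough HNRNPUL2-BSCL2 was called at -0.48 (adjusted p = 0.0203) and HNRNPUL2 itself had -0.17 (adjusted p = 0.371). BSCL2, at the other end of the readthrough, had a log2 fold change of 0.65 (adjusted p = 0.0881).

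Among the SRSF genes the one call under sh4 was SRSF1, the SR protein first purified as SF2/ASF, which binds purine-rich exonic enhancers. It lies on chromosome 17 from 58000919 to 58007346 and had 5136, 6150 and 6253 counts in shlacZ, 3949 and 4224 in sh4, and 5582 and 5055 in sh8. The sh4 libraries lay below the controls (log2 fold change -0.51, SE 0.12, adjusted p = 0.0162), and the sh8 libraries lay on either side of the lowest control. With quantile normalization it was still called, at -0.33 (adjusted p = 0.0379). SRSF7, an export adaptor like SRSF3, was next with -0.37 (adjusted p = 0.0669) and also had both sh4 libraries below all controls. SRSF5 had -0.44, with a wide 95% interval of -0.93 to 0.04. SRSF2, SRSF3, SRSF6, SRSF8, SRSF9 and SRSF11 lay between -0.25 and -0.02, and SRSF4 (0.12) and SRSF10 (0.18, 95% interval -0.12 to 0.47) were above 0. The intervals leave room for changes of about the size of the called hnRNPs in several of these, so that a missed threshold does not show an unchanged gene.

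**Figure D4:**
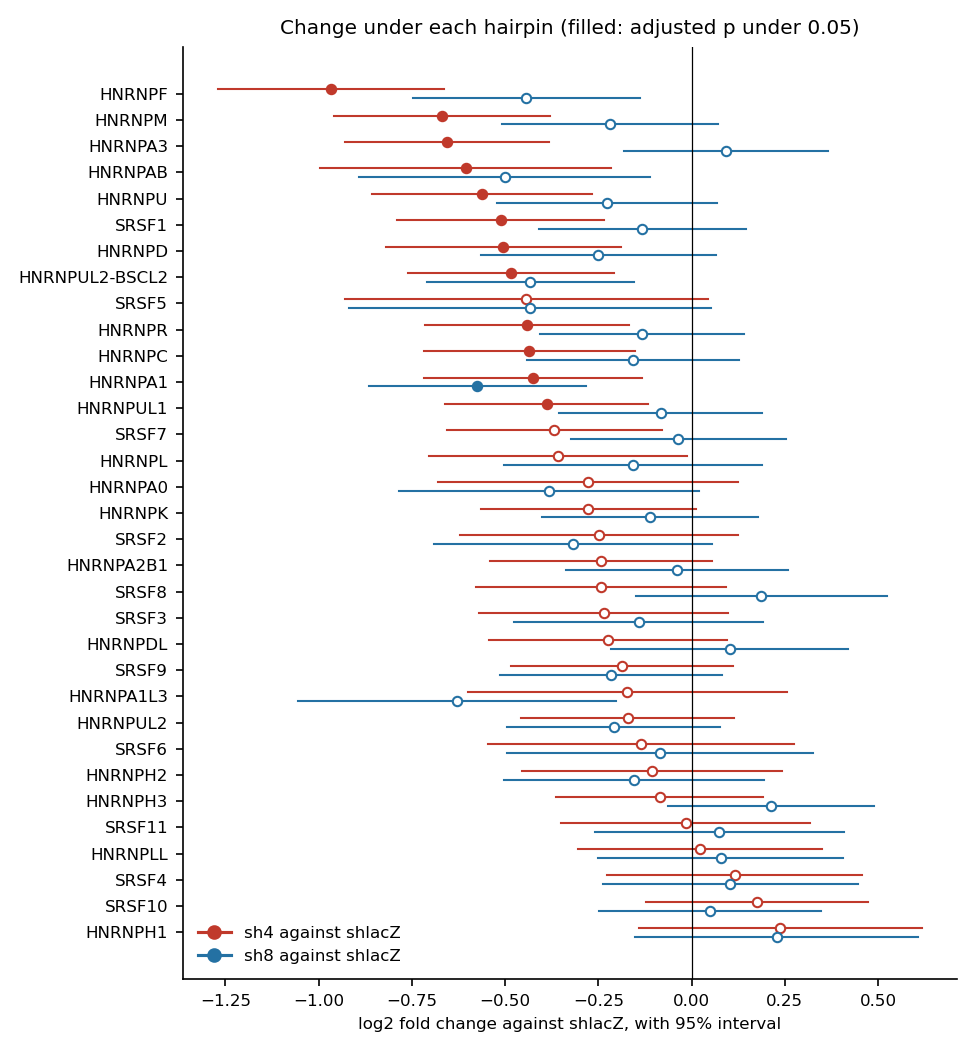
Log2 fold change against shlacZ with its 95% interval for 33 members under sh4 (red) and sh8 (blue), ordered by the sh4 value; filled points passed an adjusted p of 0.05, and the low HNRNPA1L2 and HNRNPD-DT are not drawn. 12 sh4 points are filled, from -0.97 for HNRNPF to -0.39 for HNRNPUL1, and 1 sh8 point, HNRNPA1.

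Under sh8 few members passed the test. 1 of 35 members was called (2.86%), the HNRNPA1 described above, where 2.92% of all genes were called and 1.54% called lower. The members' median log2 fold change was -0.16 against -0.0099, and 26 of 35 were below 0, against 51.2% of all genes. Of 6418 genes with a mean over 500, 3694 were below 0, with a median of -0.05. No SRSF gene was called by limma (0 of 11, with 0 at an unadjusted p under 0.05). Of the 12 members called under sh4, 11 also had a negative value under sh8, but both comparisons use the same 3 control libraries, so the signs are not independent. HNRNPF had -0.44 (adjusted p = 0.118), HNRNPAB had -0.50 (adjusted p = 0.165) and HNRNPUL2-BSCL2 had -0.43 (adjusted p = 0.0963). HNRNPA1L3, the copy of HNRNPA1, had -0.63 (adjusted p = 0.114). Without replicate 1 of shlacZ 4 of 35 members were called, all lower. In that fit 10.4% of all genes were called, and 884 of 15389 were called lower. Without replicate 2 or without replicate 3 of shlacZ no member was called. Without replicate 1 or 2 of sh8, which leaves 1 sh8 library, the members' median was -0.20 or -0.08.

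The direct test of sh4 against sh8 called 1 of 35 members (2.86%), in a comparison where 7% of all genes were called and 3.33% called lower. This was HNRNPA3, which had 6108 and 7218 counts in sh4 and 11950 and 10415 in sh8, a log2 difference of -0.75 (SE 0.13, 95% interval -1.05 to -0.45, adjusted p = 0.0107). Under sh8 alone it stood at 0.09 against shlacZ (95% interval -0.18 to 0.37). The call was lost without replicate 1 of sh4, without replicate 2 of sh4 and without replicate 1 of sh8. For HNRNPF the difference was -0.52 (adjusted p = 0.0644), for HNRNPM -0.45 (adjusted p = 0.0878) and for SRSF1 -0.38 (adjusted p = 0.132). No other member called under sh4 passed this test, so that a difference between the hairpins was not shown for them. Without replicate 1 of shlacZ 5 of 35 members were called, all lower. In that fit 12.9% of all genes were called, and 960 of 15389 were called lower.

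9 members stand in the study's supplementary lists of genes from lower Hallmark sets (HNRNPA1, HNRNPC, HNRNPD, HNRNPR, HNRNPU, SRSF1, SRSF2, SRSF3 and SRSF7). 6 of them are among the 12 called under sh4. The study drew those lists from these same libraries, so they are not independent evidence of direction.

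The proteins that phosphorylate and import SR proteins moved in both directions under sh4. Of the genes tested 3 of 9 were called (33.3%), where 22.5% of all genes were. CLK4, a nuclear kinase of SR proteins, was higher with log2 fold changes of 0.88 (adjusted p = 0.00413) under sh4, 0.74 (adjusted p = 0.0385) under sh8 and 0.81 (adjusted p = 0.0196) for both. SRPK1, the kinase that primes SR proteins for import, was lower under sh4 (-0.89, adjusted p = 0.000783), had -0.28 (adjusted p = 0.224) under sh8 and -0.59 (adjusted p = 0.0870) for both, and differed between hairpins by -0.60 (adjusted p = 0.0198). DYRK1A, another kinase of splicing factors, was lower under sh4 at -0.41 (adjusted p = 0.0438) and had -0.10 under sh8, -0.26 for both and a difference of -0.31, none of which passed. The hnRNP proteins named otherwise had 1 of 11 called under sh4 (9.09%), below the share of all genes. This was the polypyrimidine tract protein PTBP1 (-0.66, adjusted p = 0.00833). It had -0.29 under sh8, -0.47 for both and -0.37 between hairpins, all short of the threshold. Its relative PTBP3, the 1 gene of that list called under sh8, stood at -1.001 there (adjusted p = 0.00277), and differed between hairpins by 0.82 (adjusted p = 0.00581). PTBP3 was chosen after its values were seen.

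SR-related proteins, which carry the arginine- and serine-rich tail without being classical SR proteins, had 2 of 27 called under sh4 (7.41%), against 22.5% of all genes. These were PNN (-0.62, adjusted p = 0.0162), a nuclear speckle and desmosome-associated protein, and LUC7L3, a U1-associated protein (-0.38, adjusted p = 0.0484). Neither passed under sh8 (-0.21 and 0.07), for both hairpins (-0.42 and -0.16) or between hairpins (-0.41 and -0.45). Of 25 other splicing regulators 5 were called under sh4 (20%), 3 of them lower (12%). These shares are near the 22.5% of all genes called and the 11.9% called lower. ESRP1, the epithelial splicing regulator, was lower at -2.25 (adjusted p = 0.000643), had -0.18 (adjusted p = 0.782) under sh8 and -1.21 (adjusted p = 0.211) for both, and differed between hairpins by -2.07 (adjusted p = 0.00514). CELF2, an RNA-binding protein of the CELF family, was higher at 0.73 (adjusted p = 0.00168) under sh4, 1.09 (adjusted p = 0.00117) under sh8 and 0.91 (adjusted p = 0.00972) for both, with a difference of -0.37 (adjusted p = 0.0975). ZRANB2, a zinc finger protein with an SR-like tail, was lower under sh4 at -0.55 (adjusted p = 0.00625), with -0.04 under sh8, -0.29 for both and a difference of -0.51 (adjusted p = 0.0314). The other two called, named after their values were seen, were MBNL2 (0.74, adjusted p = 0.0276) and SFPQ (-0.56, adjusted p = 0.0107).

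Of the core spliceosome 5 of 46 genes (10.9%) were called under sh4, all lower, which is near the 11.9% of all genes called lower. 43 of its 46 genes were below 0, with a median of -0.24. SNRPA (-0.61, adjusted p = 0.0131), a U1 protein, SNRPA1 (-0.57, adjusted p = 0.0281), a U2 protein, and the Sm protein SNRPE (-0.73, adjusted p = 0.0302) had the lowest adjusted p, and U2AF2 (-0.69, adjusted p = 0.0375) and SF3B3 (-0.42, adjusted p = 0.0392) were the others. Under sh8 these had -0.38, -0.37 and -0.30, for both hairpins -0.50, -0.47 and -0.52, and between hairpins -0.24, -0.20 and -0.43, and none of those values passed. Of the nonsense-mediated decay factors, which degrade the poison-exon isoforms of many SR and hnRNP genes, 4 of 14 (28.6%) were called under sh4, all lower. Among all genes 11.9% were called lower. EIF4A3 of the exon junction complex had -0.70 (adjusted p = 0.0206), UPF3B had -0.59 (adjusted p = 0.0230) and MAGOHB, also of the exon junction complex, had -0.72 (adjusted p = 0.0276). EIF4A3 was also lower under sh8 (-0.84, adjusted p = 0.0382) and for both hairpins (-0.77, adjusted p = 0.0299), and differed between hairpins by 0.14 (adjusted p = 0.742). UPF3B and MAGOHB had -0.03 and -0.62 under sh8, -0.31 and -0.67 for both and -0.56 and -0.10 between hairpins, without passing. The other gene called was UPF1 (-0.62), the helicase at the centre of the pathway.

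Under sh8, where 2.92% of all genes were called, the companion lists held calls of 1 to 3 genes each. The kinases had 1 of 9 (11.1%, CLK4), the hnRNP proteins named otherwise 1 of 11 (9.09%, PTBP3) and the decay factors 1 of 14 (7.14%, EIF4A3). The other regulators had 3 of 25 (12%). These were CELF2, QKI, which was higher at 0.55 (adjusted p = 0.0264), and KHDRBS3, which was lower at -0.94 (adjusted p = 0.0305). These shares are above that of all genes, but no list was tested as a set. By limma 0 of 27 SR-related genes and 0 of 46 core spliceosome genes were called, with 1 (3.70%) and 7 (15.2%) at an unadjusted p under 0.05, against 18.5% of all genes.

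**Figure D5:**
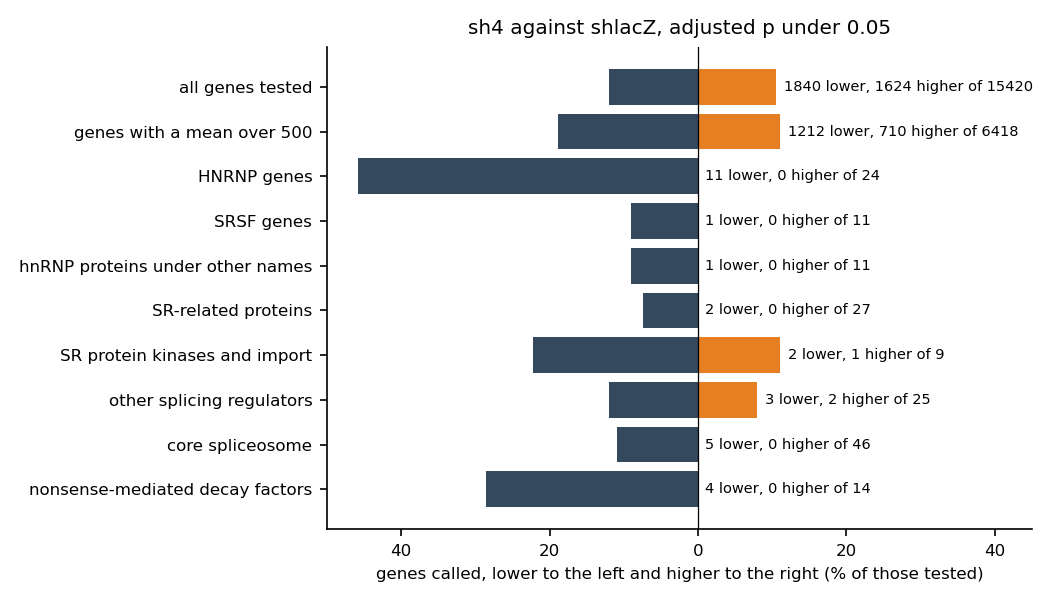
Percentage of tested genes called under sh4 in each list, lower to the left and higher to the right, with the counts beside the bars; no list was tested as a set. HNRNP genes have 11 of 24 called lower, SRSF genes 1 of 11, and all genes tested 1840 of 15420.

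The starts of the members were read for CACGTG, the E-box that MYC with MAX can bind. The motif was picked after 12 members and MYC had been seen to be lower under sh4. MYC had 3679, 4823 and 5178 normalized counts in shlacZ, 1740 and 1437 in sh4, and 3857 and 4289 in sh8. It was lower under sh4 (log2 fold change -1.51, adjusted p = 0.000287) and lay within the control range under sh8 (-0.15, adjusted p = 0.663). MYC was not the only transcription factor with a lower level under sh4. MITF had means of 19985 in shlacZ, 12127 in sh4 and 18224.5 in sh8. The part of either in the members' levels was not tested. The motif reads the same on both strands, and no other motif was searched. RefSeq promoters (GRCh38.p14, 250 bases before to 50 after a start) were found for 32 of 35 members, and not for SRSF2, HNRNPA1 and HNRNPA1L3. The motif was in 7 of the 32 (21.9%), against 8.77% of the 27305 genes with a promoter. Those genes outnumber the 21305 genes measured here and were not paired with the members by level. The motif was in 4 of the 11 matched members called under sh4 (HNRNPA3, HNRNPD, HNRNPM and HNRNPUL1) and in 3 of the other 21 (HNRNPDL, HNRNPH2 and HNRNPH3). Whether called and other members differ in this was not tested. HNRNPF, HNRNPU and SRSF1 had none in this window. A match is a description of the sequence and says nothing of binding, nor of which factor could bind. 30 bases around the motif (capitals) are given for the 3 called members that have it before the start site, from 5′ to 3′ on the strand of the gene.

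HNRNPA3, chr2:177212711-177212740, plus strand: cggaaaacgcgtCACGTGacgactggcccc
HNRNPD, chr4:82374001-82374030, minus strand: gcgctctcgcgtCACGTGaccgggacgcgc
HNRNPM, chr19:8444921-8444950, plus strand: gttgcgtcgggtCACGTGggcgcgcaggcg

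The motif starts 71 bases before the RefSeq start in HNRNPA3, 27 before it in HNRNPD and 42 before it in HNRNPM. Members not called also have it before a start, at 156 and 127 bases in HNRNPDL, 42 and 9 in HNRNPH2 and 50 in HNRNPH3. Its place is thus not particular to the called members.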

How the data were processed

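Members and companion gene lists were chosen with earlier results of these data known. The deposited table holds normalized counts, in which the authors divided each count by the size factor of its library. For the reads, the authors removed ribosomal RNA, made stranded libraries, trimmed adapters with Cutadapt, mapped to hg38 with STAR, quantified with Salmon and used DESeq2. Versions and annotation release are not given in the sources used here. With such factors, a change common to most genes is lost. Dividing by the smallest step of each library returned whole reads for 100% of values, within 0.01 of a read, and these gave the depth. No gene had fewer than 10 reads over the 7 libraries, and a gene below that was not analysed here.

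limma 3.58.1 (R 4.3.3, variance trend) was run on log2 of the normalized count plus 1, and covered 15420 genes, those whose mean reached 10. A gene was called where its p, adjusted by Benjamini-Hochberg over all genes tested, was under 0.05. This scale understates changes of low genes. The pooled hairpins were compared with shlacZ in a fit of 2 levels, and sh4, sh8 and shlacZ with each other in a fit of 3 groups with 1 shared spread, so that comparisons share control libraries. Intervals are 95% and cover single comparisons. The fits were tested on simulated data. Named are all members, with values by library for those called in the pooled, sh8 or between-hairpin comparison and for the 8 with the lowest adjusted p under sh4, up to 3 genes of each companion list called under sh4, and GRASLND. 1 gene of these lists is not reported here. MYC, BSCL2, PTBP3 and the other genes of companion lists were added after their values were seen. Coordinates and lengths came from GENCODE release 44 on hg38. Strand-aware counting is not stated in the sources used here, so that reads of overlapping genes may be shared. Alternatives covered the pseudocount, the minimum mean, scaling, the variance trend, the replicate number, the groups in the fit, limma-voom and each library left out.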

Additional observations from a re-analysis of the deposited data

Results flagged for a closer look

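HNRNPA3 was set apart by its difference between the hairpins. Against shlacZ the log2 fold change was -0.66 with sh4 and 0.09 with sh8. The log2 difference of sh4 minus sh8 was -0.75 (SE 0.13, limma adjusted p = 0.0107). Both sh4 libraries lay below both sh8 libraries. The call was lost without variance trend, without either library of sh4 and without replicate 1 of sh8, and the value ranged from -0.87 to -0.63 over 17 alternatives.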

How the results depend on the processing

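No called member and not GRASLND changed sign in an alternative, although uncalled members did. Of 35 members, those below 0 under sh4 went from 31 to 28 with equal totals and with quantile normalization and to 27 without sh4 replicate 1, and for both hairpins from 29 to 26 with quantile normalization. With 2 or 3 libraries a group, calls near the threshold depend on single libraries and on the estimate of the spread, and counting error limits the low members. For both hairpins against shlacZ the count of members called went from 1 to 0 with a pseudocount of 10, without a filter on low values, without variance trend and with limma-voom (added after seeing the data), to 2 with a minimum mean of 50 and to 6 when the hairpins were averaged in the fit of 3 groups, and from 0 to 2 with 1 library left out (2 without shlacZ replicate 1, 0 without any other shlacZ or sh4 library). GRASLND kept its log2 fold change of -0.85 without variance trend, but at an adjusted p of 0.0806, and ranged from -0.99 to -0.73 with 1 library left out, at adjusted p values of up to 0.178. Under sh4 the 12 members called became 6 with quantile normalization, 4 without variance trend, 9 with equal library totals, 10 in a fit of 2 groups and 1 to 16 with 1 library left out. Equal totals moved the median of all genes from -0.0076 to 0.09 and that of the members to -0.18. Under sh8 the 1 member became 0 with a pseudocount of 10, without a filter, without variance trend and in a fit of 2 groups, and 0 to 4 with 1 library left out. Between hairpins the 1 member became 0 without variance trend, 2 in a fit of 2 groups and 0 to 5 with 1 library left out. Over all genes, the calls of both hairpins together went from 711 to 138 without variance trend, 42 with the replicate block and 2534 in the fit of 3 groups, those under sh8 from 451 to 59 without variance trend and 299 in a fit of 2 groups, and those between hairpins from 1079 to 476 without variance trend. With 1 library left out they ranged from 66 to 1189 for both hairpins, 1407 to 4867 under sh4 (3464 with all), 52 to 1597 under sh8 and 144 to 1979 between hairpins. Under other settings the counts of members stayed within 1.5 times. The companion lists were less steady, and were not followed with libraries left out. Without variance trend, those called under sh4 went from 5 to 0 in the core spliceosome, 2 to 0 in SR-related proteins and 4 to 1 in decay factors, and under sh8 the kinases and the decay factors went from 1 to 0, as also in a fit of 2 groups. hnRNP proteins under other names went from 1 to 3 under sh4 with a minimum mean of 50. Where not stated, the cause was not tested. A lone library of a hairpin was assumed to vary like the other groups.

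The replicate numbers are shared between groups, but only 2 are, and same-numbered libraries did not deviate together throughout (correlations of -0.08 to 0.34), so they were taken as names. With the number as a replicate block, members called were 0 for both hairpins, 12 under sh4, 2 under sh8 and 2 between hairpins, and GRASLND had -0.90 (adjusted p = 0.150). For both hairpins the kinases, the other regulators and the decay factors each went from 1 call to 0. Count models had been planned for the recovered reads and were left out, since the decimal commas of the table kept it from being declared as counts.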
